A study of Mus musculus with 4 samples.

Results

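The IL-6 family comprises small secreted cytokines that signal through receptors containing the shared subunit gp130. Its members were taken by gene symbol, as 6 ligand genes (Il6, Il11, Lif, Osm, Clcf1 and Ctf1) and 4 receptor genes (Il6ra, Il6st, Lifr and Osmr). Every probe set that the platform annotation assigns to exactly 1 of these genes was used, which gave 21 of the 45037 probe sets on the array that are not controls. All 10 genes were represented, by between 1 and 4 probe sets each. Probe sets of a gene share its transcript and are not independent of each other.

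RNA came from freshly sorted basal cells of the mammary gland, a fraction enriched for stem cells that also holds myoepithelial cells and their progenitors. Of the 4 samples, 2 came from mice fed soy protein isolate (SPI) and 2 from mice fed the control casein (CAS) diet. All of these mice carried the MMTV-Wnt1 transgene, in which a mouse mammary tumour virus promoter drives Wnt1, on a mixed background labelled B66SJL/HEV/J. The age of the mice, the number of mice behind each sample and whether the samples of a diet came from separate mice are not given in the labels, so a p-value here reflects the variation among the 4 samples alone, and that variation may be technical.

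In this family a ligand brings gp130, encoded by Il6st, together with a ligand-specific partner. IL-6 binds Il6ra before it engages gp130, LIF pairs gp130 with Lifr, and mouse oncostatin M pairs it with Osmr. The assembled receptors activate JAK kinases and the transcription factor STAT3, and in the mouse mammary gland LIF is best known for activating STAT3 when the gland regresses after weaning.

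The deposited values are log2 expression values centred on the median of the 4 arrays in each probe set. They hold no expression level, so levels cannot be compared between genes and the presence of basal markers cannot be checked. The centring also makes the inner 2 values of each probe set mirror images of each other. In the SPI samples 2 of 25 probe sets of 12 basal markers were higher (Krt15 and Oxtr, named here after their values were seen), where 0.249% of all probe sets were higher, and none was lower. With the arrays centred on hybridization controls 5 of the 25 were higher, where 3.46% of all probe sets were. Over all probe sets the median difference between the diets was 0.023 on the log2 scale, and the 18 hybridization control probe sets, which read bacterial and phage transcripts added before hybridization, differed by -0.155 on average.

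The 5′ flanks of Il6 and Lif are shown because these are the ligand genes with the most negative diet differences. They are the 250 bases before the annotated start, from RefSeq on GRCm38.p6, printed 5′ to 3′ on the plus strand, with motif matches in capitals.
Il6, chr5:30012864-30013113: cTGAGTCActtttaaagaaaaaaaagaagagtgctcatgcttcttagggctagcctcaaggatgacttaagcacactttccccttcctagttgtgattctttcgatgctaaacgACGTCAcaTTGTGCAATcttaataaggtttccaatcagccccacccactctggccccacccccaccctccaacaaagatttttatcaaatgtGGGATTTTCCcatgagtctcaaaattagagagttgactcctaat
Lif, chr11:4257318-4257567: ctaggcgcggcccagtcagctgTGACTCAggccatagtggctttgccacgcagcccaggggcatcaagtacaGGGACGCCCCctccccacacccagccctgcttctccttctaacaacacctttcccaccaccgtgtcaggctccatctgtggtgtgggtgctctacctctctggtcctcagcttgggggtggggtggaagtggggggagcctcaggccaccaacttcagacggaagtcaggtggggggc
The motifs searched on both strands were AP-1 (TGANTCA), C/EBP (TTNNGNAAT), the core of the cyclic AMP element, CRE (ACGTCA), STAT (TTCNNNGAA) and NF-kappaB (GGGRNNYYCC). In these patterns N is any base, R is A or G and Y is C or T. In the Il6 flank the AP-1 match TGAGTCA began 249 bases before the start, the CRE core ACGTCA 136 bases before it, the C/EBP match TTGTGCAAT 128 bases before it and the NF-kappaB match GGGATTTTCC 44 bases before it. In the Lif flank the AP-1 match TGACTCA began 228 bases before the start and the NF-kappaB match GGGACGCCCC 178 bases before it. The STAT motif matched neither flank. Of 32851 RefSeq flanks of the same length, 6.75% held the AP-1 motif, 10.2% the C/EBP motif, 6.47% the CRE core, 7.02% the STAT motif and 7.25% the NF-kappaB motif. Flanks were available for 8 of the 10 genes, as 10 entries, since Il11 and Lifr had more than 1 entry. Among the other 6 genes the search found only an AP-1 match in 1 entry of Il11, and no match in the other Il11 entry.

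Il6 fell in the SPI samples and was the only member whose probe set passed the test. Il6 encodes interleukin 6, an inflammatory cytokine that drives the acute-phase response. Its probe set (1450297_at) read -0.49 and -0.71 in the SPI samples, against 0.49 and 0.71 in the CAS samples. Both SPI samples lay below both CAS samples, and the gap between samples of a diet was 0.215 in SPI and 0.218 in CAS. The difference was -1.20 on the log2 scale (SE 0.120, 95% interval -1.51 to -0.89, n = 2 samples per diet), which is 2.30-fold lower in SPI (1.86 to 2.84). Its limma adjusted p over all 45037 probe sets was 0.024. On the same arrays 564 probe sets (1.25%) passed as lower and 112 (0.249%) as higher in SPI, and 1 call among 21 probe sets is too few to set the family apart from that background. With either sample of a diet left out the difference stayed between -1.31 and -1.09, but the limma adjusted p was 0.278 without CAS replicate 1, 0.273 without CAS replicate 2, 0.169 without SPI replicate 1 and 0.259 without SPI replicate 2, and in those 4 fits no probe set on the array passed. With an ordinary t statistic in place of the limma one the difference was the same and the adjusted p was 0.295.

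Markers of several other cell types moved with Il6 across the same samples. Over all probe sets 1.25% were called lower in SPI and 0.249% higher. Of 25 probe sets of 11 fibroblast markers 19 were lower in SPI, with list medians of -0.76 and -0.85 in the SPI samples and 0.76 and 0.90 in the CAS samples. Of 26 luminal probe sets 10 were lower and of 20 endothelial and pericyte probe sets 9 were lower. Among 17 macrophage and myeloid probe sets none passed in either direction, and 8 had an unadjusted p under 0.05 in limma. Both SPI samples lay above both CAS samples in 12 of the 17 and below them in 2, where 27.9% and 20.5% of all probe sets did so. With arrays centred on the hybridization controls 5 of the 17 passed as higher, where 3.46% of all probe sets did. The medians of this list were 0.03 and 0.13 in SPI, against -0.15 and -0.05 in CAS. Of 13 mast cell and granulocyte probe sets 4 were lower. These were for the mast cell proteases Mcpt4, Cpa3 and Cma1 (-1.71, -1.57 and -1.20, named after their values were seen) and for Kit. Kit is in the luminal list too, so its call in 1452514_a_at (-1.13) is also among the 10 luminal ones. The other Kit probe set, 1415900_a_at (-0.92), was not called. Tpsb2, also a mast cell protease (0.09 and 0.17), and the mast cell gene Ms4a2 (-0.05 and 0.02) were not called. Of 19 B and plasma cell probe sets 4 were lower, of Ighm and Jchain, and of 14 adipocyte probe sets 2, both of Lpl. None of 16 T and NK cell probe sets was lower, and 2 of them had an unadjusted p under 0.05 in limma. The 3 probe sets for 18S ribosomal RNA put the samples in the same order as Il6, with SPI replicate 2 lowest, then SPI replicate 1, CAS replicate 1 and CAS replicate 2. The part of these markers and of the 18S signal in the Il6 result was not tested, and fewer cells of a type and less RNA per cell cannot be told apart in sorted bulk samples.

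**Figure D1:**
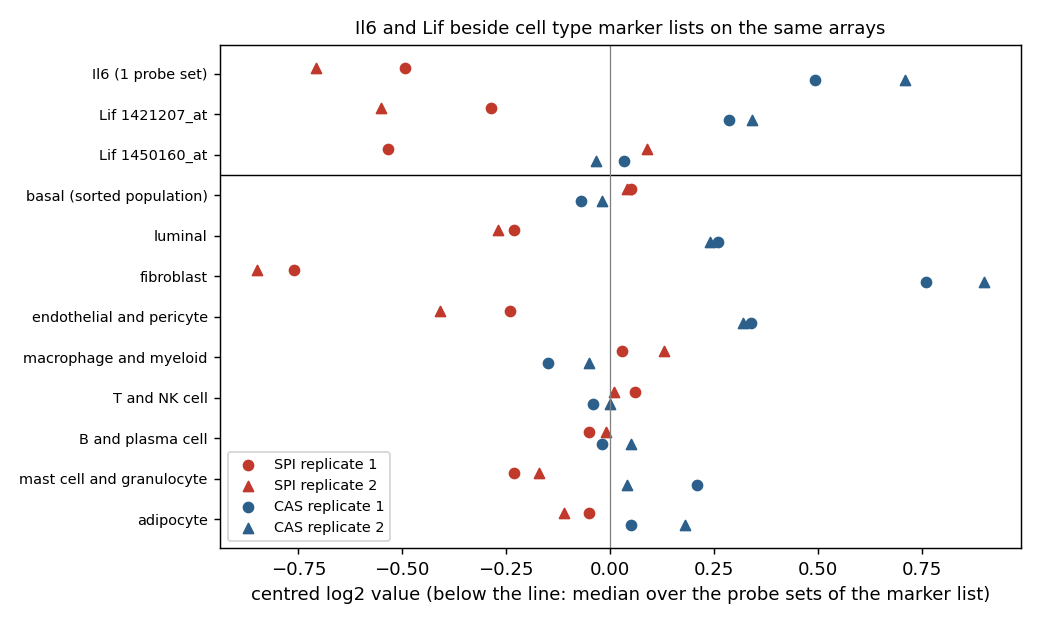
Centred log2 values of Il6 and of each Lif probe set (above the line) and the median over the probe sets of each cell type marker list (below it), with 1 point per sample, SPI in red and CAS in blue. Il6 and the fibroblast list both lie at -0.49 or below in the SPI samples and at 0.49 or above in the CAS samples.

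The 5 genes whose probe sets lay nearest to Il6 by Euclidean distance over the 4 centred samples were Ccl8, a chemokine for monocytes (distance 0.026), Csn1s1, a casein of milk (0.118), Mfap4, a protein of elastic fibres (0.127), and the collagen chains Col5a3 (0.131) and Col6a2 (0.134). Ccl8 read -0.49 and -0.71 in the SPI samples, against 0.49 and 0.73 in the CAS samples. The likeness rests on 4 values and describes these arrays only.

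Lif, which encodes leukemia inhibitory factor, was read by a pair of probe sets that disagreed. The probe set 1421207_at read -0.29 and -0.55 in the SPI samples, against 0.29 and 0.34 in the CAS samples, with no overlap between the diets. Its difference of -0.73 (SE 0.111, 95% interval -1.02 to -0.45, n = 2 per diet) missed the threshold over all probe sets, at a limma adjusted p of 0.0597. The other, 1450160_at, read -0.53 and 0.09 in the SPI samples, against 0.03 and -0.03 in the CAS samples. There SPI replicate 1 was low and SPI replicate 2 was the highest of the 4, and the gap of 0.625 between the SPI samples was the widest within a diet among all members. Its difference of -0.22 had an interval from -0.76 to 0.31 (limma adjusted p = 0.64), and without SPI replicate 1 it was 0.09.

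The threshold for Lif depended on how the probe sets were tested. For 1421207_at the limma adjusted p was 0.0312 among probe sets at log2 level 4 or above (a class read from the step size of the deposited digits), 0.0154 with a variance trend over the level class and 0.0306 with the arrays centred on hybridization controls, where 1.56% of all probe sets passed as lower. When the probe sets of each gene were averaged before testing, Lif was lower in SPI by a log2 difference of -0.48 (95% interval -0.68 to -0.27, limma adjusted p = 0.0448 over 18193 genes, where 3.09% of genes passed as lower). When only a gene's probe sets in its highest level class were averaged, both Lif probe sets were kept, so its difference was the same by construction. In that fit Lif missed the threshold (limma adjusted p = 0.0553, where 2.90% of genes passed as lower). It missed the threshold again for 1421207_at with any of the 4 samples left out, at adjusted p between 0.18 and 0.335 in limma.

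Il11 encodes interleukin 11, which signals through gp130 and a receptor of its own. Its probe set read -0.04 and -0.13 in the SPI samples, against 0.04 and 0.24 in the CAS samples. The samples did not overlap, but CAS replicate 2 stood apart from the other values. The difference of -0.23 (95% interval -0.48 to 0.02) did not pass (limma adjusted p = 0.319), and it was -0.07 when the hybridization controls were used to centre the arrays.

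Osm encodes oncostatin M, a cytokine made mainly by myeloid cells and T cells. It read 0.10 and -0.10 in the SPI samples, against -0.25 and 0.16 in the CAS samples, so the diets overlapped. The gap of 0.412 between the CAS samples was wider than the difference of 0.05 between the diets (95% interval -0.36 to 0.46, limma adjusted p = 0.919).

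Ctf1 encodes cardiotrophin 1, a ligand of the receptor that pairs Lifr with gp130. It read -0.06 and 0.06 in the SPI samples, against -0.10 and 0.06 in the CAS samples, with a difference of 0.02 (95% interval -0.22 to 0.26). Clcf1 encodes a cytokine that acts through the ciliary neurotrophic factor receptor. Its 3 probe sets differed by -0.09, 0.01 and 0.04, with adjusted p between 0.573 and 0.977 in limma, and all of their intervals lay between -0.27 and 0.22. In 1437271_at both SPI samples lay below both CAS samples, in 1437270_a_at both lay above, and in 1450262_at the diets overlapped.

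**Figure D2:**
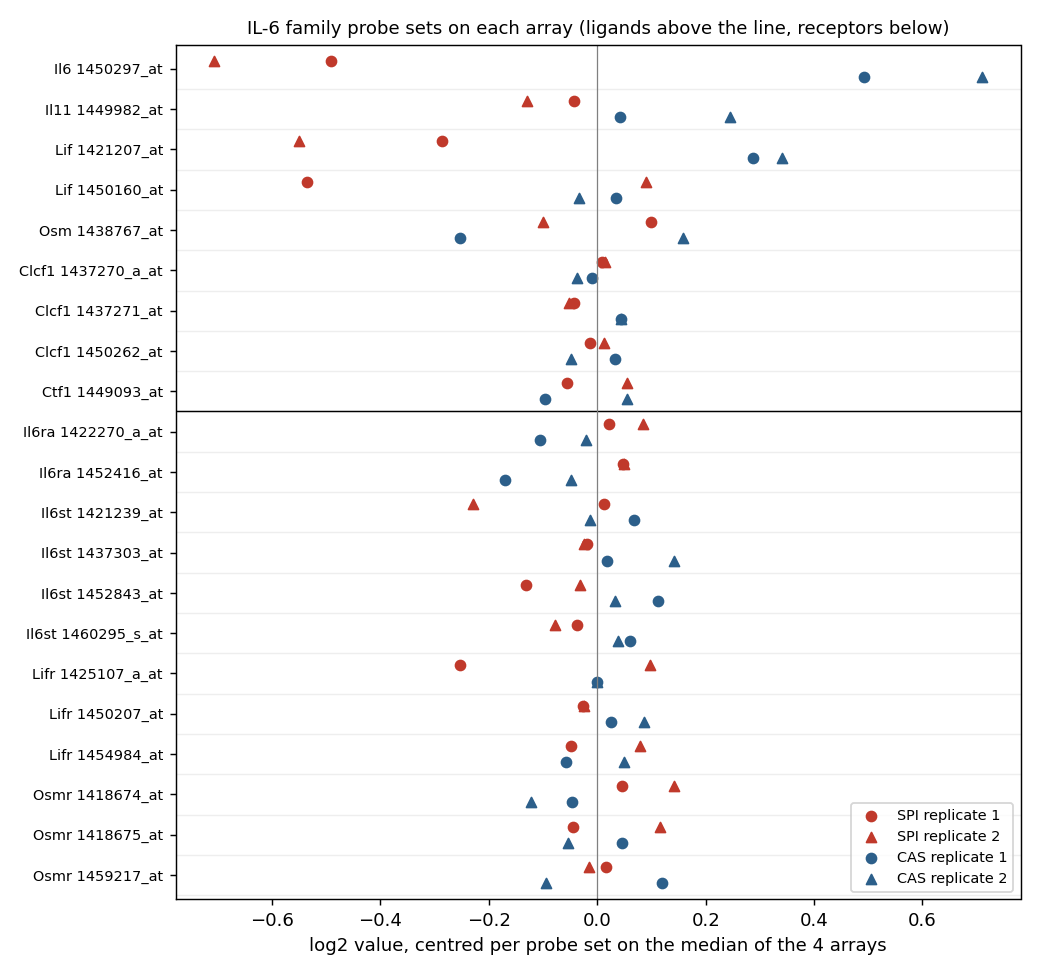
Centred log2 values of all 21 probe sets in each of the 4 samples (x axis), SPI in red above CAS in blue, with replicates 1 as circles and 2 as triangles. Il6 and Lif 1421207_at are separated by diet with the widest gaps, while the receptor values lie between -0.253 and 0.141.

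None of the 12 receptor probe sets passed the test in either direction, and none had an unadjusted p under 0.05 in limma. Their differences lay between -0.15 and 0.18, with limma adjusted p between 0.34 and 0.973, and their 95% intervals between -0.41 and 0.39. Differences within those bounds could not be detected with 2 samples per diet.

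Il6st, the gp130 subunit on which these ligands depend, was read by 4 probe sets, and all 4 were on the lower side in SPI. The probe set 1452843_at read -0.13 and -0.03 in the SPI samples, against 0.11 and 0.03 in the CAS samples, a difference of -0.15 (95% interval -0.36 to 0.06). The other 3 differed by -0.13, -0.11 and -0.10. In 3 of the 4 both SPI samples lay below both CAS samples, and in 1421239_at they overlapped because SPI replicate 2 read -0.23 and SPI replicate 1 read 0.01. With the arrays centred on hybridization controls all 4 differences were above 0, at 0.002 to 0.05, so no direction can be given for Il6st.

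Il6ra, the alpha subunit that binds IL-6 itself, was on the higher side in both of its probe sets. The probe set 1452416_at read 0.05 and 0.05 in the SPI samples, against -0.17 and -0.05 in the CAS samples, a difference of 0.16 (95% interval -0.05 to 0.37, limma adjusted p = 0.386). The other, 1422270_a_at, read 0.02 and 0.08 in the SPI samples, against -0.11 and -0.02 in the CAS samples, a difference of 0.12 (95% interval -0.09 to 0.32). In both of them the SPI samples lay above the CAS samples, and in neither did the difference pass.

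Osmr, the oncostatin M receptor, had the largest positive difference among the members. The probe set 1418674_at read 0.05 and 0.14 in the SPI samples, against -0.05 and -0.12 in the CAS samples, a difference of 0.18 (95% interval -0.03 to 0.39, limma adjusted p = 0.34). The samples did not overlap there, but the other 2 Osmr probe sets overlapped, with differences of 0.04 and -0.01.

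Lifr, the LIF receptor, gave differences of -0.08, -0.08 and 0.02 in its 3 probe sets, all above 0 with the arrays centred on hybridization controls. In 1425107_a_at the CAS samples lay within 0.001 of each other while the SPI samples read -0.25 and 0.10, on either side of them. In 1450207_at the SPI samples read -0.03 and -0.03, against 0.03 and 0.09 in the CAS samples. In 1454984_at the diets overlapped.

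**Figure D3:**
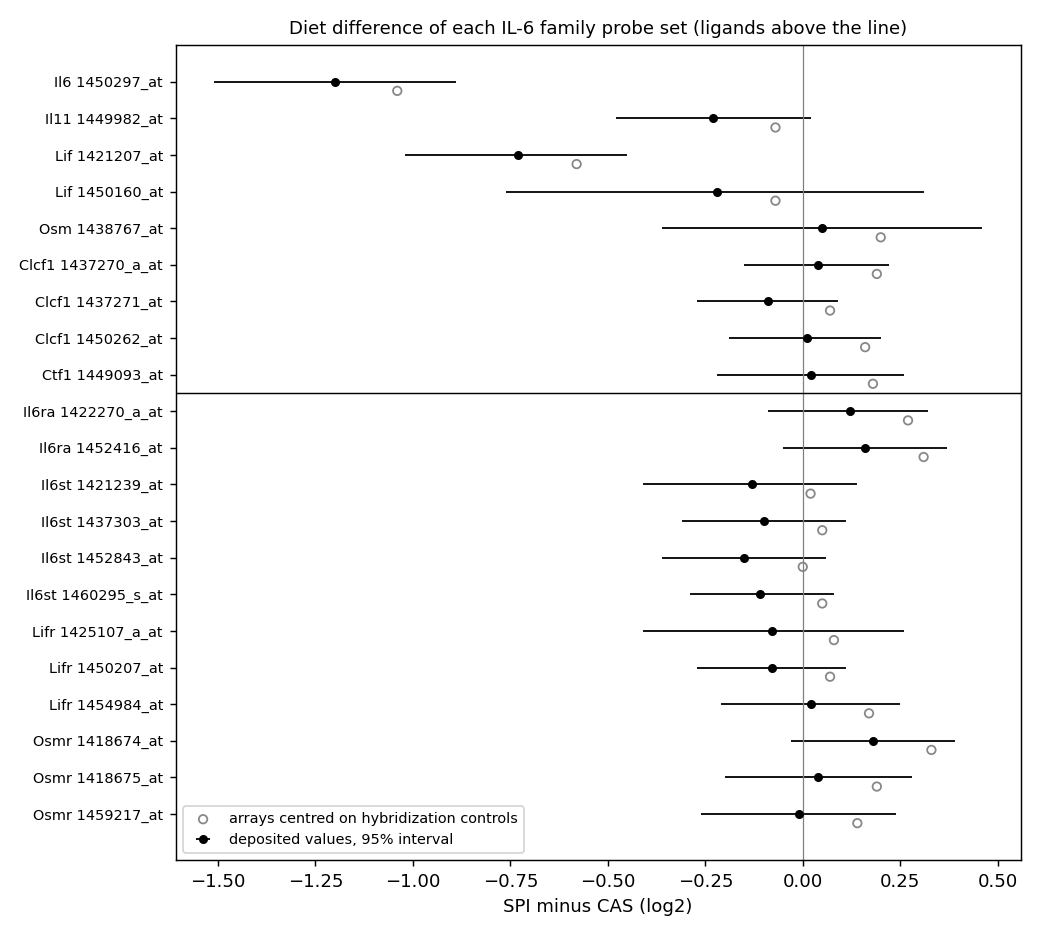
Difference between diets (SPI minus CAS, log2, x axis) of each probe set, with the 95% interval of the limma fit as a bar and, as open circles, the difference after arrays were centred on the hybridization controls. The intervals of Il6 and Lif 1421207_at lie wholly below 0, and that centring places all Il6st circles just above 0.

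Both SPI samples lay below both CAS samples in 8 of the 21 probe sets, from 6 genes, and above them in 4, from 3 genes. These are 38.1% and 19.0% of the members, where 20.5% and 27.9% of all probe sets did so. Of the 8, 3 are probe sets of Il6st. Centring the arrays on the hybridization controls turned the differences of 8 of the 21, all among those not called, to above 0. The median difference of the members was -0.077, and -0.045 without Il6, beside 0.023 over all probe sets.

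Among the rest of the pathway, no gene of the signalling chain passed. Of 47 probe sets of 17 JAK, STAT and regulator genes none was called in limma, with 4 at an unadjusted p under 0.05, and their median difference was 0.02. The smallest p values in that list belonged to Cish, an inhibitor of STAT5 signalling (0.28, adjusted p = 0.163), Stat3 (-0.34 in 1459961_a_at, adjusted p = 0.173), Sos1, an activator of Ras (-0.28 in 1421885_at), and Stat5b (-0.20 in 1422103_a_at). The other 3 Stat3 probe sets read differences of -0.04, -0.08 and -0.13. Those of Sos1 read 0.01, -0.18, 0.02 and -0.04, and the other Stat5b probe set read 0.04. Socs3, the inhibitor that STAT3 induces, was picked for mention after its values were seen and differed by 0.18, 0.06 and 0.03 in its 3 probe sets.

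Of 7 probe sets of 5 other ligands and receptors of the family none was called in limma, with 3 at an unadjusted p under 0.05, and 2 passed as higher after arrays were centred on the hybridization controls, where 3.46% of all probe sets passed as higher. Cntfr, the receptor subunit of ciliary neurotrophic factor, differed by 0.35 (adjusted p = 0.174 in limma) and -0.01 in its probe sets. Il31ra, the receptor of an itch-inducing cytokine, differed by 0.32 in 1451535_at and by 0.0 in 1445095_at. Il27ra differed by -0.22 and Ebi3 by 0.09.

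Among 26 genes known as STAT3 or IL-6 targets 5 had a probe set that fell in SPI and none rose, where 2.20% of all 18193 genes had a probe set that fell and 0.456% had one that rose. They were the acute-phase proteins Saa1, Saa2 and Saa3, the cell cycle gene Ccnd1 and, named after its value was seen, Bcl3, a partner of NF-kappaB. In the whole list 8 of 46 probe sets were called, where 1.25% of all probe sets fell, and its median was -0.04, beside 0.023 over all probe sets. After arrays were centred on the hybridization controls the list median was 0.11, with 9 probe sets lower and 1 higher. Ccnd1, which encodes cyclin D1, read -0.39 and -0.61 in the SPI samples, against 0.39 and 0.41 in the CAS samples, in 1417419_at (-0.90, SE 0.099, limma adjusted p = 0.0289), and its other probe sets differed by -0.80 and -0.91. Bcl3 differed by -0.61 (limma adjusted p = 0.0451) and Saa3 by -0.72 (0.0413). The Saa1 probe sets differed by -1.97 and -2.45. The Saa genes are close copies of each other. The only Saa2 value, -1.41 (1449326_x_at), and the Saa1 value of -1.97 (1419075_s_at) carry suffixes that mark sequence shared with other transcripts. The Saa3 probe set, 1450826_a_at, carries a different suffix. It was left out of the fit without probe sets that can bind related transcripts because that filter took the suffixes _a_at, _s_at and _x_at together. Fibroblast markers moved the same way on these arrays, with a list median of -1.69, and their part was not tested.

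Of 12 cytokines that NF-kappaB induces together with Il6, 2 fell in SPI and none rose, where 2.20% of all genes had a probe set that fell. Tnf read -0.41 and -0.61 in the SPI samples, against 0.78 and 0.41 in the CAS samples (-1.10, limma adjusted p = 0.0454), and Cxcl5, a neutrophil chemokine, differed by -1.45 (0.0156). The Cxcl5 probe set lay in the level class 2 to 4 and so outside the fit at level 4 or above. Il1a (-0.56, adjusted p = 0.0504) and Csf3 (-0.53, 0.066) missed the threshold in limma. The median of the 17 probe sets was -0.25, or -0.09 with the hybridization controls as the centre, and 12 of them had both SPI samples below both CAS samples, where 20.5% of all probe sets did. The calls of Tnf, Cxcl5, Saa1, Saa2, Saa3, Ccnd1 and Bcl3 did not hold with any of the 4 samples left out, since no probe set on the array passed in those fits.

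**Figure D4:**
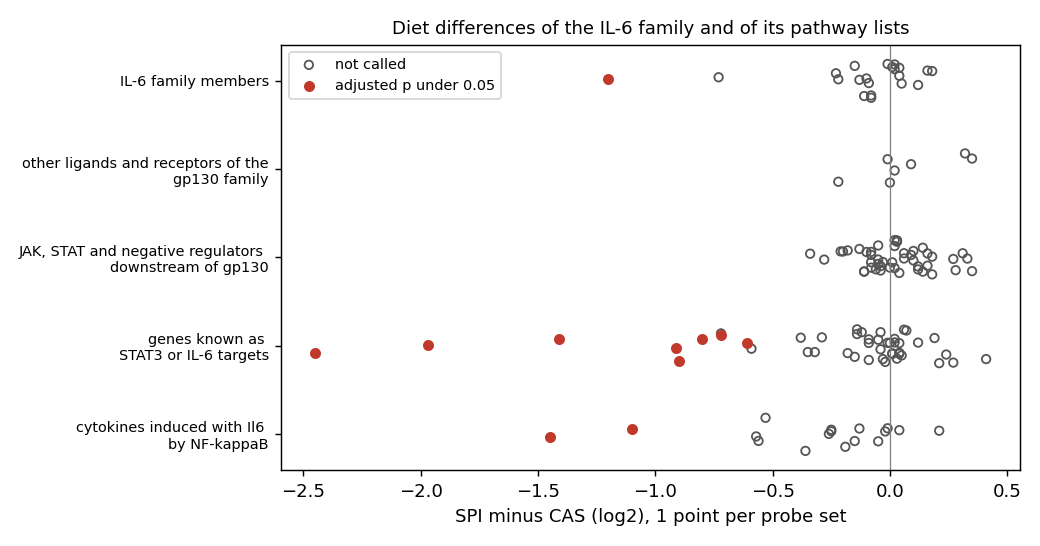
Difference between diets (SPI minus CAS, log2, x axis) of each probe set of the IL-6 family and of 4 pathway lists, with probe sets at an adjusted p under 0.05 filled and others open. All filled points lie below 0, and the JAK and STAT list has none.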

How the data were processed

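Per the labels' protocols, total RNA of sorted cells was copied into biotin-labelled RNA and hybridized to Affymetrix arrays. Per the submitters' processing notes GCOS and RMA were used. Their versions are not given in the sources used here. What was deposited are log2 values, with base 2 inferred from RMA. The median of the 4 values was 0 to within 5e-07 in every probe set, so the authors' values had been centred, a step that no label records.

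The 10 genes, the pathway lists and the marker lists were chosen with earlier results of these data known. Probe sets were named by the platform annotation, with symbols updated through a RefSeq table of GRCm38.p6. The 64 control probe sets were left out. Each of the other 45037 was fitted by limma 3.58.1 (R 4.3.3; functions lmFit and eBayes) for the two-sided difference SPI minus CAS without a block, on 2 residual and 3.11 prior degrees of freedom, with Benjamini-Hochberg adjustment over all of them and a threshold of 0.05. An exact permutation test of 2 against 2 cannot give a two-sided p below 0.333, so none is reported. The number of arrays limits the precision.

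Named genes were all members, the 4 genes with the smallest p in each pathway list and the 5 nearest to Il6. A level class was read from the step size of the digits, which is coarser at higher levels. By chance the class can come out too high, and the variance trend and the highest-class means both use it. All 21 members fell at level 4 or above, but 9 of 44 olfactory receptor probe sets also did, so the class does not establish expression. The alternatives tried were a block on the replicate number, each sample left out, centring of arrays and a level filter. Others were a variance trend, an ordinary t statistic and gene-level means. The means ran over all probe sets of a gene, or over those in its highest level class. The last alternative left out probe sets with the suffix _a_at, _s_at or _x_at, treated here as able to bind related transcripts.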

Additional observations from a re-analysis of the deposited data

How the results depend on the processing

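Il6 was lower in SPI under each of the 13 alternatives run, and Lif 1421207_at under each that kept probe sets apart. These directions were fixed by the values and are no separate support. In both probe sets both SPI samples lay below both CAS samples, so leaving out 1 sample could not turn the sign. The other fits kept the difference or, by centring, moved it by less than its size. The 1 member called lower became 2, the second being Lif, with arrays centred on the hybridization controls, at level 4 or above, with the variance trend and with means over all of a gene's probe sets, stayed 1 with means over those in its highest level class, and became 0 with the ordinary t statistic, with the replicate block and without any 1 sample (0 to 0). No paired origin is given in the labels, and the deviations of same-numbered samples correlated at -0.099. With the replicate block Il6 kept its difference of -1.20 at a limma adjusted p of 0.106, and with the ordinary t statistic at an adjusted p of 0.295. Over all probe sets the 564 lower calls became 75 with the block, 930 at level 4 or above, 1076 with the trend, 1 with the ordinary t statistic and 0 without any 1 sample. The 112 higher calls became 4 with the block, 1557 with the hybridization controls, which moved the median of all differences to 0.178, 401 at level 4 or above, 479 with the trend, 0 with the ordinary t statistic and 0 without any 1 sample. Between 4882 and 6513 probe sets had an unadjusted p under 0.05 in the limma fits without 1 sample, and 6084 with the ordinary t statistic. A lone sample there was assumed to vary like the other diet.

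None of the members whose direction turned had passed the test. With the hybridization controls the differences became 0.07 for Clcf1 1437271_at, 0.02, 0.05, 0.002 and 0.05 for Il6st, 0.08 and 0.07 for Lifr 1425107_a_at and 1450207_at, and 0.14 for Osmr 1459217_at. With arrays centred on their median Clcf1 1450262_at became -0.007. Without 1 sample the ranges were -0.53 to 0.09 for Lif 1450160_at, -0.16 to 0.25 for Osm, -0.03 to 0.05 for Clcf1 1450262_at, -0.06 to 0.10 for Ctf1, -0.25 to 0.10 and -0.04 to 0.08 for Lifr 1425107_a_at and 1454984_at, and -0.04 to 0.12 and -0.12 to 0.10 for Osmr 1418675_at and 1459217_at. Centring subtracts a constant from each array and so moves all differences equally. With the hybridization controls, which differed by -0.155 on average, small negative differences turned by that arithmetic. The cause of the turns without 1 sample was not tested.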

Other observations

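The 3 probe sets for 18S ribosomal RNA, which are controls and entered no test, were lower in both SPI samples than in both CAS samples. They read -0.15, -0.10 and -0.06 in SPI replicate 1 and -0.44, -0.35 and -0.42 in SPI replicate 2, against 0.15, 0.10 and 0.06 in CAS replicate 1 and 0.69, 0.46 and 0.55 in CAS replicate 2. The 15 control probe sets for Bacillus subtilis transcripts differed by 0.053 on average.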
